A study of Mus musculus with 36 samples.

Results

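Acute phase proteins are plasma and tissue proteins whose amounts change during inflammation. The 9 genes described here encode members of that class, namely the serum amyloid A genes *Saa1*, *Saa2* and *Saa3*, *Hp*, *Orm1*, *Orm2*, *Lcn2*, *Lbp* and *Apcs*. They were chosen by gene name among the 24750 genes of the normalized expression table, and all 9 were found under 1 Ensembl identifier each. All 9 were also among the 17852 genes that passed a filter of at least 1 normalized CPM (read abundance scaled to depth and between libraries by the authors) in at least 3 libraries. *Alb*, the gene of albumin and a product of hepatocytes, served as a gauge of liver-type RNA.

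The tissue was epididymal white adipose tissue (eWAT) of 36 male mice in 12 groups of 3. Wild-type (WT) C57BL/6 mice and CCL19-KI mice were fed a normal diet (ND), a 40% high-fat diet (HFD) or a 60% HFD from 6 weeks of age, and in each diet and genotype some mice had a silk ligature around a molar for the last 2 weeks of feeding, which induces periodontitis (LIP), while others had none. CCL19-KI mice are homozygous for a copy of the chemokine gene *Ccl19* placed at the *Adipoq* locus, so the transgene is driven in adipocytes, and the line was bred apart from the WT mice. The mice were perfused with PBS at 16 weeks of age, and lymph nodes were removed from the fat before RNA was taken.

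During an acute phase response, cytokines such as interleukin-6 and interleukin-1 act on hepatocytes, which then release serum amyloid A, haptoglobin, orosomucoid and other proteins into the blood, while albumin synthesis falls. Adipocytes and macrophages of fat also make a part of this set: haptoglobin, orosomucoid, lipocalin-2, LPS-binding protein and serum amyloid A3 are all known adipose products in mice, and several of them are raised in obesity. Transcription factors of the C/EBP, STAT3 and NF-kB families act on the promoters of many of these genes.

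The libraries held 11962228 to 21581595 reads on genes (median, 15573273), so 1 read corresponded to 0.0472 to 0.0834 normalized CPM, and 0 reads allowed a level of up to 0.142 to 0.250. These limits cover counting error only. The adipocyte marker *Adipoq* was present in every library at 300.1 to 3937 normalized CPM. The liver gauge was not uniform, because *Alb* lay at 5.55 to 13.4 in 6 libraries and at 267 to 26901 in the other 30. The 6 libraries with little *Alb* were all 3 of the WT mice on ND without ligature, replicates 2 and 3 of the CCL19-KI mice on ND with ligature, and replicate 3 of the CCL19-KI mice on 60% HFD without ligature. Epididymal epithelium markers summed to 12413, 9729 and 9561 in 3 libraries, with a median of 1.38 over all 36. The next highest sums were 2210, 1526 and 940, made up mostly of *Crisp1*.

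*Saa1*, *Saa2* and *Saa3* lie on chromosome 7, *Orm1* and *Orm2* on chromosome 4, *Lcn2* and *Lbp* on chromosome 2, *Apcs* on chromosome 1 and *Hp* on chromosome 8. The levels per kilobase of annotated exon, taken as the median over the 36 libraries, were highest for *Hp* at 1168 and *Orm1* at 233, followed by *Lbp* at 43.2, *Saa3* at 7.93, *Lcn2* at 4.396, *Orm2* at 3.09, *Apcs* at 2.56, *Saa1* at 0.725 and *Saa2* at 0.266. Of the 9 members *Hp* was therefore the highest on this scale, below the gauge *Alb* at 2227, and *Saa1* and *Saa2* were the lowest. The annotated exons of *Saa1* and *Saa2* cover 2.478 and 2.518 kb, while their longest coding transcripts have 609 and 652 bases. The place of *Saa1* and *Saa2* in this order therefore depends on the length used. *Orm1* and *Orm2* have annotated exons of the same length, and *Orm1* exceeded *Orm2* by a median of 67.6-fold, with a range of 14.2 to 298 over the libraries. The near-identical pairs can exchange reads: 26.8% of the 31-base words of the longest *Saa1* coding transcript also occur in *Saa2*, and 27.5% of those of *Orm1* occur in *Orm2*, so the split within each pair is uncertain.

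The promoters are shown because *Saa1*, *Saa2*, *Saa3* and *Orm2* differed in their levels and in their correlation with *Alb*, while sharing 1 short set of letters upstream. Of the 9 genes, 6 had a promoter in the RefSeq table (build GRCm38.p6), and *Hp*, *Orm1* and *Lbp* did not. The letters searched were those of a C/EBP motif (TTGCNNAA, on both strands), a STAT motif (TTCNNNGAA, on both strands) and a TATA box (TATAAA, on the gene's strand), in the 250 bases before the start of each gene. Capitals mark the C/EBP letters in the first 4 sequences and the STAT letters in the last, and each runs 5′ to 3′ on the gene's strand.
*Saa1* (minus strand, chr7:46743109-46743208): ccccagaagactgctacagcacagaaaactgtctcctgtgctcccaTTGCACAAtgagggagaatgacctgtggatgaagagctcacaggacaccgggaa
*Saa2* (plus strand, chr7:46751604-46751703): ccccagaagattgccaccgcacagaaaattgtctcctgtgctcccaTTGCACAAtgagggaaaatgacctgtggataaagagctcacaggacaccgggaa
*Saa3* (minus strand, chr7:46715722-46715821): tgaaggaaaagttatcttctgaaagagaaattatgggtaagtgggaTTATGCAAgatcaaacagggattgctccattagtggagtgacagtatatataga
*Orm2* (plus strand, chr4:63362283-63362382): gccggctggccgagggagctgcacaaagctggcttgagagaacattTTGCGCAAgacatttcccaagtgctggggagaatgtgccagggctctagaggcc
*Apcs* (minus strand, chr1:172895244-172895304): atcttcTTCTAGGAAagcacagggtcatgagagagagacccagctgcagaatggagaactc

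The C/EBP letters were found in *Saa1*, *Saa2*, *Saa3*, *Orm2* and *Lcn2*, against 9.56% of all 32851 promoters in the table. Counted from the start of the gene, their first base was at -182 in *Saa1*, -183 in *Saa2*, -99 in *Saa3*, -120 in *Orm2* and -216 in *Lcn2*. The *Lcn2* match lies in an annotated exon of a longer *Lcn2* transcript, so its surroundings are not printed. *Apcs* held no C/EBP letters but the STAT letters (7.02% of all promoters), and *Orm2* held the TATA letters (7.59%). *Saa1* and *Saa2*, which lie head to head, shared 238 of 251 aligned promoter positions (94.8%), whereas the other pairs shared 35.7% to 47.9%. These matches describe letters only.

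*Saa1* and *Saa2* encode the serum amyloid A proteins that circulate with high-density lipoprotein, and *Apcs* encodes serum amyloid P, a pentraxin. All 3 are regarded as liver products, and in this fat they were near 0 wherever *Alb* was. In the 6 libraries with little *Alb*, *Saa1* was 0 to 0.196 normalized CPM, *Saa2* was 0 to 0.163 and *Apcs* was 0 in every one, which is at most 4 reads of *Saa1*, 3 of *Saa2* and none of *Apcs* in a library. In the other 30 libraries *Saa1* ranged from 0.0774 to 328, *Saa2* from 0 to 344 and *Apcs* from 0.0472 to 16.2. Within those 30 libraries the log2 level of *Apcs* rose with that of *Alb*, with Pearson's r = 0.94 and Spearman's rho = 0.94 (permutation p = 1e-05 for each, the smallest that 100000 permutations can give, and 9e-05 after Benjamini-Hochberg adjustment over the 9 members). For *Saa1*, r was 0.55 and rho 0.62 (adjusted permutation p = 0.00725 and 0.00105), and for *Saa2*, r was 0.47 and rho 0.63 (0.0228 and 0.00105). Without the 2 libraries farthest from the median of *Alb*, r was 0.92 for *Apcs*, 0.50 for *Saa1* and 0.43 for *Saa2*. The last was close to the 0.47 of all 30 libraries but no longer passed the test (adjusted permutation p = 0.0644). On deviations from the group means r was 0.93, 0.54 and 0.46, and the last passed (adjusted permutation p = 0.0287). Among the 6 libraries with little *Alb*, no correlation of *Saa1* or *Saa2* with *Alb* passed the test (lowest adjusted permutation p = 0.911).

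*Hp*, *Orm1* and *Lbp* are also classed as hepatocyte products, but here they were abundant also where *Alb* was near 0. *Hp* encodes haptoglobin, which binds free hemoglobin, *Orm1* and *Orm2* encode orosomucoid (alpha-1-acid glycoprotein), and *Lbp* encodes the protein that carries bacterial lipopolysaccharide to its receptor. With *Alb* at 5.55 to 13.4, *Hp* still reached 740 to 4871, *Orm1* 32.4 to 257 and *Lbp* 76.1 to 409 normalized CPM, against 848 to 3990, 51.5 to 239 and 35.7 to 490 in the other 30 libraries. The library with the least *Alb* of all, WT on ND without ligature, replicate 1, held the most *Hp* (4871) and the most *Orm1* (257). In the 30 libraries with *Alb*, r with *Alb* was 0.29 for *Hp*, 0.21 for *Orm1*, 0.19 for *Orm2*, 0.036 for *Lbp*, -0.10 for *Saa3* and -0.27 for *Lcn2*, and none of these passed the test (adjusted permutation p from 0.255 to 0.850 for r). The rho of *Orm1* was 0.35 (adjusted permutation p = 0.132). Without the 2 libraries farthest from the median of *Alb*, r was 0.39 for *Orm1* (adjusted permutation p = 0.0737) and -0.42 for *Lcn2* (adjusted permutation p = 0.0644), sizes close to the 0.43 of *Saa2*. The plot of 6 members against *Alb* shows both patterns.

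**Figure D1:**
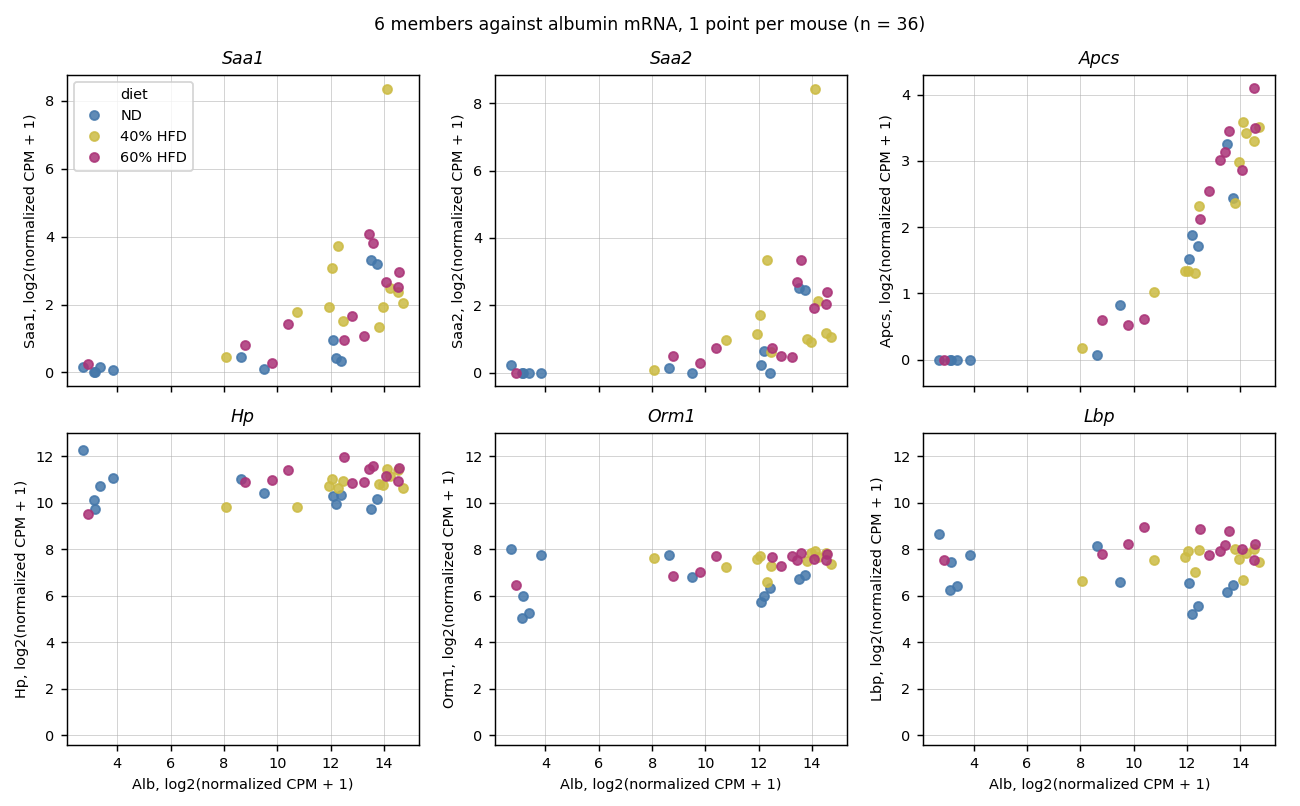
Each point is 1 of 36 mice. The x axis gives log2(normalized CPM + 1) of *Alb* and the y axis the same of *Saa1*, *Saa2*, *Apcs* (top) and *Hp*, *Orm1*, *Lbp* (bottom), colored by diet. In the top row, the 6 libraries with *Alb* at 5.55 to 13.4 sit at or near 0, and *Apcs* climbs with *Alb* (r = 0.94 in the other 30 libraries). In the bottom row, the same 6 libraries lie within the range of the others for *Lbp*, while for *Hp* and *Orm1* they reach both below it (740 and 32.4 normalized CPM) and above it (4871 and 257).

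*Saa1* and *Saa2* were each dominated by 1 mouse. In WT mice on 40% HFD without ligature *Saa1* was 328, 12.2 and 4.62 normalized CPM and *Saa2* was 344, 9.08 and 3.34. The highest values in the other 35 mice were 15.9 and 9.08. Per 1000 units of *Alb*, the first of these mice had 18.5 units of *Saa1* and 19.4 of *Saa2*, against at most 2.43 and 1.81 in the other libraries with *Alb* and medians of 0.307 and 0.176. Its *Saa2* level was 1.05 times its *Saa1* level, the highest ratio of the 21 libraries with *Saa1* at 1 or more, whose median was 0.435. The same library held the most *Orm2* (16.8, against at most 8.58 elsewhere), and it ranked 2 of 36 for *Orm1* (239) and 3 of 36 for *Lcn2* (73.7). *Saa3* at 61.0 and *Hp* at 2772 ranked 6 of 36 there, and *Lbp* at 100.4 ranked 27 of 36, so the members did not move as 1 block. It also held the lowest sum of the adipocyte markers (6402, against a median of 19557), whose part in these values was not tested.

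In CCL19-KI mice on ND without ligature *Saa1* was 0.377, 9.02 and 8.26, and *Apcs* was 0.0472, 8.59 and 4.42. *Alb* in the same 3 mice was 397, 11700 and 13696, so the mouse low in *Alb* was also the low one for both. In CCL19-KI mice on 60% HFD with ligature, *Saa1* was 13.0, 15.9 and 1.71 with *Alb* at 12273, 11117 and 1337. The low mouse was again low for both genes. The pooled SD within groups, on the scale of log2(normalized CPM + 1), was 2.46 for *Alb*, 1.24 for *Saa1*, 1.203 for *Saa2* and 1.07 for *Apcs*, against 0.46 for *Orm1*, 0.55 for *Lbp* and 0.58 for *Hp*.

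**Figure D2:**
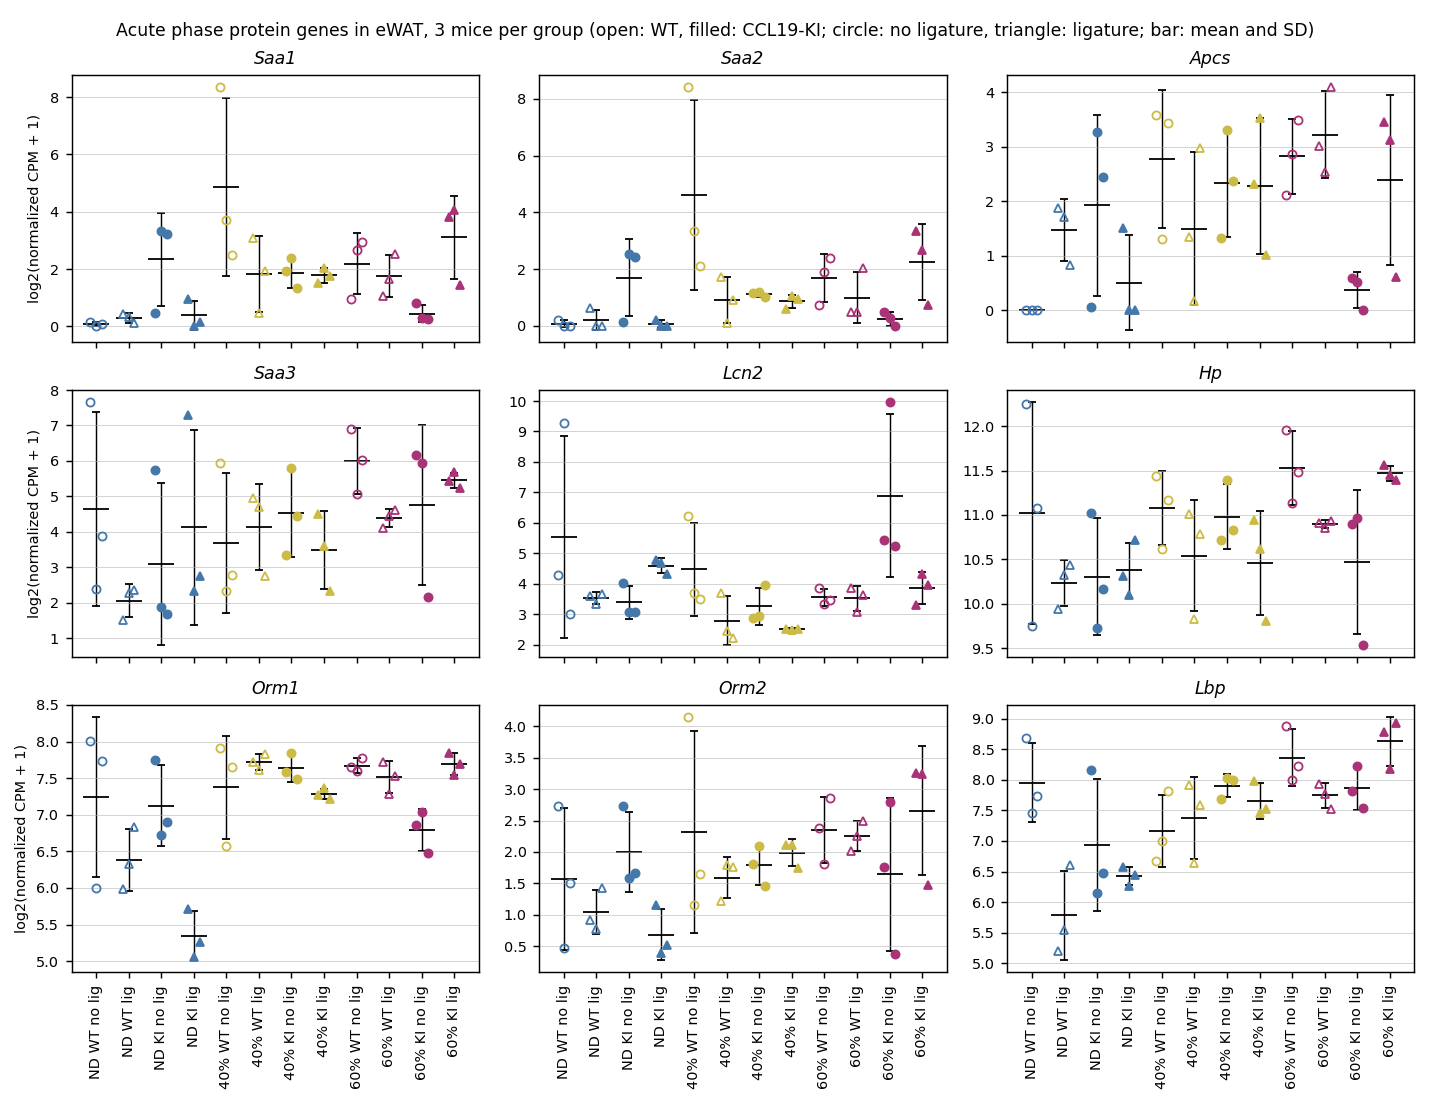
Each panel is 1 gene and each point 1 mouse (3 per group), on the scale of log2(normalized CPM + 1). The x axis gives the 12 groups by diet (color), genotype (open WT, filled KI) and ligature (circle without, triangle with), and bars give the mean and SD. *Saa1* and *Saa2* peak in 1 mouse on 40% HFD (328 and 344 normalized CPM) and *Lcn2* in 2 mice (622 and 1007), while *Orm1* is low in all 3 ND KI mice with ligature (32.4 to 51.5).

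*Saa3* and *Lcn2* are the members best known as local products of fat and of inflamed tissue. *Saa3*, the serum amyloid A made by macrophages and adipocytes, ranged from 1.86 to 203 normalized CPM and was detected in all 36 libraries. In WT mice on ND without ligature it was 203, 4.23 and 13.6, and in CCL19-KI mice on ND with ligature 157, 3.99 and 5.76, so 1 mouse of each group stood far above the other two. In WT mice on ND with ligature it was 1.86, 3.80 and 4.18, the lowest group. On 60% HFD it was 119, 32.2 and 63.8 in WT mice without ligature, 16.2, 20.6 and 23.6 in WT mice with ligature, and 42.3, 50.2 and 36.9 in CCL19-KI mice with ligature. In CCL19-KI mice on 60% HFD without ligature it was 71.5, 60.6 and 3.48. The pooled SD within groups was 1.70 on the log2 scale, the largest among the 9 members, and the mouse with 203 also held the most summed macrophage markers (3624, against a median of 1946). The part of macrophages in this value was not tested. In bulk tissue, a different share of a cell type and a different amount of RNA per cell cannot be told apart.

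*Lcn2* encodes lipocalin-2, which binds bacterial siderophores. It lay between 3.61 and 73.7 normalized CPM in 34 libraries and reached 622 in WT on ND without ligature, replicate 2, and 1007 in CCL19-KI on 60% HFD without ligature, replicate 2. Both libraries also held transcripts of the epididymal epithelium, the tissue beside this fat pad. *Gpx5* was 5722 and 3636, *Adam7* was 2201 and 1711, and *Lcn8* was 696 and 1730 in these libraries, while the median of *Gpx5* over all 36 was 0.128. Another library, CCL19-KI on 60% HFD without ligature, replicate 3, had an equally high sum of the epididymal list (9561), of which *Crisp1* made up 9541 and *Gpx5* 0.491, and its *Lcn2* was 36.5. The median of *Lcn2* over all 36 libraries was 11.5. The part of epididymal RNA in *Lcn2* was not tested. The values of *Lcn2* in each comparison described are given with and without the first 2 libraries, a choice made after their values were seen. Leaving out libraries for their *Lcn2* values lowers the spread of *Lcn2* in the fit. Its p-values without them are therefore too small and cannot support a difference.

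**Figure D3:**
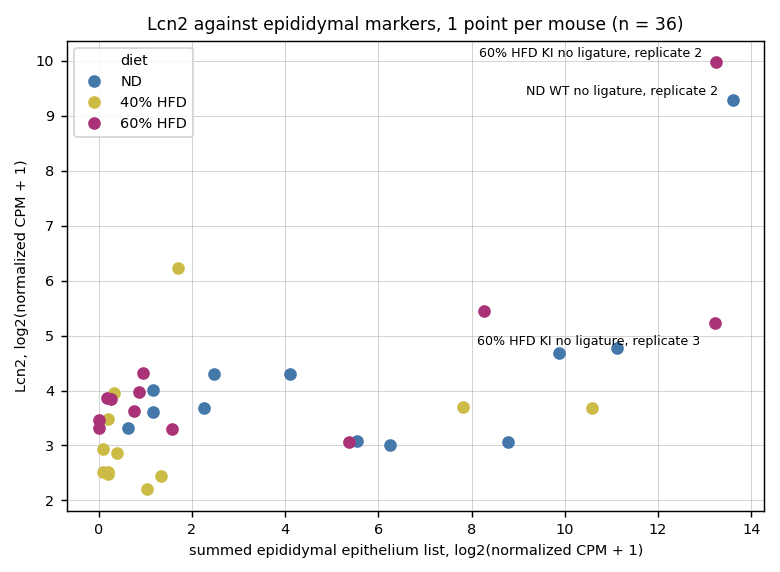
Each point is 1 of 36 mice, colored by diet. The x axis gives log2(normalized CPM + 1) of the summed epididymal epithelium list and the y axis the same of *Lcn2*. The 2 libraries with 622 and 1007 normalized CPM of *Lcn2* lie at the top right. The other library with a high epididymal sum (9561) has 36.5, against a median *Lcn2* of 11.5 over all 36.

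High-fat feeding gave the clearest differences. The first question was how the members differed between diets when genotype and ligature were averaged (12 mice per diet, limma on log2(normalized CPM + 1), Benjamini-Hochberg adjustment over all 17852 genes). Between 40% HFD and ND, 3 of 9 members rose and none fell, where 9.21% of all genes were called and 5.36% rose. Between 60% HFD and ND, 4 of 9 rose and none fell, where 18.6% of all genes were called and 10.2% rose. The median log2 fold change over the 9 members was 0.75 and 0.90, with medians of -0.02 and 0.01 over all genes. Both comparisons use the same 12 ND mice.

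*Lbp* was 35.7 to 409 normalized CPM on ND (median, 91.0), 98.2 to 259 on 40% HFD (median, 198) and 184 to 490 on 60% HFD (median, 272). The diets overlapped, but every mouse on 60% HFD lay above 9 of the 12 mice on ND. The log2 fold change was 0.75 ± 0.21 (SE) for 40% HFD (limma, adjusted p = 0.0288) and 1.38 ± 0.21 for 60% HFD (adjusted p = 2.26e-04), the largest member change with 60% HFD that passed the test. The first call was lost without any one of 9 mice, with adjusted p up to 0.0638 without WT on 40% HFD without ligature, replicate 3, and the second was kept in every fit without 1 mouse.

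*Orm1* was 32.4 to 257 on ND (median, 91.7), 94.4 to 239 on 40% HFD (median, 193) and 87.7 to 229 on 60% HFD (median, 189). It rose by 0.98 ± 0.18 with 40% HFD (limma, adjusted p = 0.00330) and by 0.89 ± 0.18 with 60% HFD (adjusted p = 0.00185). The ranges overlapped in both comparisons, since 3 of the ND mice held 212 to 257. Both calls were kept in every fit without 1 mouse.

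*Orm2* had medians of 1.46 on ND, 2.44 on 40% HFD and 4.00 on 60% HFD. It rose with 60% HFD (log2 fold change 0.90 ± 0.31, limma, adjusted p = 0.0446) and did not pass with 40% HFD (0.60 ± 0.31, adjusted p = 0.224). The call was lost without any one of 19 mice, with adjusted p up to 0.0902 without WT on ND without ligature, replicate 2.

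*Saa1* had medians of 0.188 on ND, 2.96 on 40% HFD and 1.94 on 60% HFD. It rose with 40% HFD by 1.82 ± 0.48 (limma, adjusted p = 0.0210), and by 1.38 in the fit without its highest mouse, which still passed, while the value with 60% HFD was 1.11 ± 0.48 (adjusted p = 0.102). Without that mouse the fit gave 1.11 for 60% HFD as well, and it passed (adjusted p = 0.0284). *Apcs* had medians of 0.411, 4.06 and 5.54, and it rose with 60% HFD by 1.23 ± 0.41 (adjusted p = 0.0401), a call lost without any one of 14 mice (adjusted p up to 0.0792). With 40% HFD it was at 1.25 ± 0.41 (adjusted p = 0.0562), which passed without any one of 7 mice. *Saa2* had a log2 fold change of 1.37 ± 0.47 with 40% HFD (adjusted p = 0.0632) and 0.78 ± 0.47 with 60% HFD (adjusted p = 0.235). The first passed without WT on 40% HFD without ligature, replicate 2 (1.53, adjusted p = 0.0342) or replicate 3 (1.68, adjusted p = 0.0246). *Alb* itself rose by 4.55 ± 0.95 with 40% HFD (adjusted p = 0.00676) and by 3.53 ± 0.95 with 60% HFD (adjusted p = 0.0132).

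With log2 *Alb* as a covariate, the values of *Saa1* and *Apcs* moved toward 0 or below it. *Saa1* with 40% HFD went from 1.82 to 0.79 ± 0.60 (limma, adjusted p = 0.601), and *Apcs* with 60% HFD from 1.23 to 0.03 ± 0.33 (adjusted p = 0.968). *Orm2* with 60% HFD went from 0.90 to 0.56 ± 0.37 (adjusted p = 0.382). The shift was not confined to these genes, as the values of *Saa2*, *Saa3*, *Hp* and *Lcn2* were also lower with the covariate. With 40% and 60% HFD they were 0.59 and 0.18 for *Saa2*, -0.50 and 0.92 for *Saa3*, 0.06 and 0.43 for *Hp*, and -1.35 and -0.07 for *Lcn2*. *Lbp* with 60% HFD was 1.46 ± 0.27 (adjusted p = 0.00141) and *Orm1* was 0.80 ± 0.22 (adjusted p = 0.0235), so both kept their calls. With 40% HFD, *Orm1* was 0.86 ± 0.25 (adjusted p = 0.0745) and *Lbp* 0.86 ± 0.29 (adjusted p = 0.140), sizes close to those without the covariate but no longer past the test. *Alb* differed between the diets, so this fit cannot separate diet from *Alb* where both moved together.

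**Figure D4:**
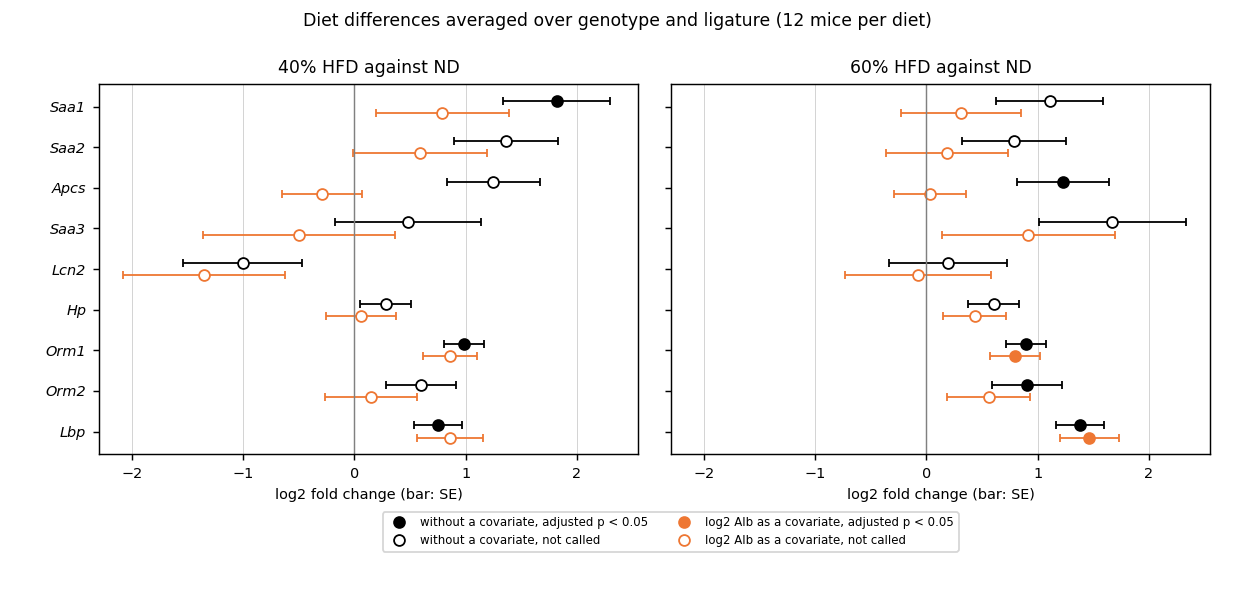
Points give the log2 fold change of each member (y axis) for 40% HFD against ND (left) and 60% HFD against ND (right), averaged over genotype and ligature, and bars give the SE. Black points are without and orange points with log2 *Alb* as a covariate, and filled points passed an adjusted p of 0.05. *Orm1* and *Lbp* stay near their values with the covariate, whereas *Apcs* falls to -0.29 and 0.03.

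*Saa3*, *Hp* and *Lcn2* did not pass in either averaged comparison. *Saa3* had medians of 4.20, 15.9 and 39.6 normalized CPM on ND, 40% HFD and 60% HFD, with log2 fold changes of 0.48 ± 0.66 (limma, adjusted p = 0.677) and 1.67 ± 0.66 (adjusted p = 0.0717). It passed with 60% HFD without any one of 4 mice, namely replicate 1 of the ND groups WT without ligature (2.05), CCL19-KI without ligature (2.00) and CCL19-KI with ligature (2.07), and replicate 3 of CCL19-KI on 60% HFD without ligature (2.00). *Hp* had medians of 1277, 1789 and 2127, with values of 0.28 ± 0.23 (adjusted p = 0.458) and 0.60 ± 0.23 (adjusted p = 0.0641), and its value with 60% HFD passed at 0.76 (adjusted p = 0.0124) without the ND mouse that held 4871. It also passed at 0.69 (adjusted p = 0.0338) without CCL19-KI on ND without ligature, replicate 1, and at 0.72 (adjusted p = 0.0264) without CCL19-KI on 60% HFD without ligature, replicate 3. *Lcn2* had medians of 13.4, 6.47 and 13.4, with values of -1.01 ± 0.53 (adjusted p = 0.226) and 0.20 ± 0.53 (adjusted p = 0.821). These were -0.54 ± 0.26 (adjusted p = 0.216) and 0.28 ± 0.27 (adjusted p = 0.489) without the 2 libraries with most *Lcn2*.

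Between 60% HFD and 40% HFD none of the 9 members was called by limma (0.745% of all genes). An unadjusted p under 0.05 was found for 2356 of all 17852 genes and for 2 members. These were *Lbp* at 0.63 ± 0.21 (adjusted p = 0.174) and *Lcn2* at 1.201 ± 0.53 (adjusted p = 0.317), which was 0.81 ± 0.26 (adjusted p = 0.107) without the 2 libraries with most *Lcn2*. edgeR's quasi-likelihood test on the recovered reads also called none.

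Within single combinations of genotype and ligature, 9 of 72 diet tests of members were called, all of them higher on HFD, against 5.02% of the tests over all genes. Without the 2 libraries with most *Lcn2*, 11 were called, of which 10 were higher and 1, *Lcn2* in ligatured CCL19-KI mice, was lower. The share over all genes was not counted for that fit. In WT mice without ligature, *Saa1* was 0.109, 0 and 0.05 on ND and 328, 12.2 and 4.62 on 40% HFD, with no overlap, as for 20.7% of all genes. There *Saa1* rose by 4.78 ± 0.96 on the log2 scale (limma, adjusted p = 0.00595), *Saa2* by 4.55 ± 0.94 (adjusted p = 0.00655) and *Apcs* by 2.78 ± 0.83 (adjusted p = 0.0451), and *Alb* went from 5.55, 7.85 and 13.4 to 17711, 5009 and 19185. Without the mouse with most *Saa1*, *Saa1* was at 3.03 (adjusted p = 0.0650) and *Saa2* at 2.65 (adjusted p = 0.0607), and with log2 *Alb* as a covariate *Apcs* was at -0.71 (adjusted p = 0.959). The call of *Apcs* was lost without any one of 15 mice, with adjusted p up to 0.270.

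In CCL19-KI mice with ligature, *Orm1* was 51.5, 32.4 and 37.3 on ND, 154, 164 and 148 on 40% HFD, and 229, 186 and 206 on 60% HFD. The 3 diets did not overlap, as was true of 28.9% of all genes for 40% HFD against ND and of 36.9% for 60% HFD against ND. It rose by 1.94 ± 0.36 (limma, adjusted p = 0.00333) and by 2.35 ± 0.36 (adjusted p = 8.34e-04), and both calls were kept with log2 *Alb* as a covariate. *Lbp* in the same mice was 94.1, 76.1 and 85.7 on ND and 440, 289 and 490 on 60% HFD, a rise of 2.21 ± 0.43 (adjusted p = 0.00259), and *Orm2* rose by 1.98 ± 0.63 (adjusted p = 0.0398). In WT mice with ligature, *Lbp* was 35.7, 45.5 and 96.3 on ND and 244, 218 and 184 on 60% HFD, a rise of 1.97 ± 0.43 (adjusted p = 0.0145). The last 2 calls were each lost without any one of 4 mice, with adjusted p up to 0.161 and 0.160.

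In CCL19-KI mice without ligature, *Lcn2* was 15.1, 7.35 and 7.43 on ND and 42.7, 1007 and 36.5 on 60% HFD. It rose by 3.50 ± 1.06 (limma, adjusted p = 0.0388). Without replicate 2 of the 60% HFD group alone it was at 1.96 (adjusted p = 0.180), and without both libraries with most *Lcn2* it was again at 1.96, with an adjusted p of 0.0227. The latter p-value is too small, since the libraries were chosen for their *Lcn2*. The call was also lost without replicate 2 or replicate 3 of the ND group, with adjusted p of 0.134 and 0.143. The epididymal list summed to 1.23, 436 and 45.4 in these ND mice and to 308, 9729 and 9561 in those on 60% HFD. Its part in this rise was not tested.

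In CCL19-KI mice with ligature, *Lcn2* was 26.2, 24.8 and 18.7 on ND and 4.74, 4.596 and 4.75 on 40% HFD. The diets did not overlap there either, as was true of 28.9% of all genes in this comparison. The log2 fold change was -2.08 ± 1.06 (limma, adjusted p = 0.241). Without the 2 libraries with most *Lcn2*, neither of which is among these 6 mice, it was again -2.08, with an SE of 0.51 and an adjusted p of 0.0144. Only the estimate of the spread changed, and that p-value is too small because the libraries were chosen for their *Lcn2*. The epididymal list summed to 2210, 940 and 16.2 in these ND mice and to 0.150, 0.141 and 0.0731 in those on 40% HFD. Its part in this difference was not tested.

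The second question was whether the oral ligature was accompanied by a change in the fat. With diets and genotypes averaged (18 mice per arm), none of the 9 members was called by limma, against 0.325% of all genes, and edgeR also called none. An unadjusted p under 0.05 was found for 2885 of all 17852 genes and for 3 members, all lower with ligature. These were *Lbp* at -0.43 ± 0.17 (adjusted p = 0.234), *Lcn2* at -1.04 ± 0.43 (adjusted p = 0.238) and *Orm1* at -0.32 ± 0.15 (adjusted p = 0.284). *Lcn2* was at -0.47 ± 0.22 (adjusted p = 0.240) without the 2 libraries in which it was highest. The gauge *Alb* was at 0.75 ± 0.78 (adjusted p = 0.652).

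Within single groups, 2 of 54 ligature tests of members were called, against 2.29% of the tests over all genes, and both were lower with ligature on ND. In WT mice on ND, *Lbp* was 409, 175 and 212 without and 35.7, 45.5 and 96.3 with ligature. All 3 ligatured mice lay below all 3 others, as 29.5% of genes did not overlap in this comparison, and *Lbp* fell by 2.18 ± 0.43 on the log2 scale (limma, adjusted p = 0.00551). In CCL19-KI mice on ND, *Orm1* was 215, 104 and 118 without and 51.5, 32.4 and 37.3 with ligature, and it fell by 1.78 ± 0.36 (adjusted p = 0.0133), where 17.1% of genes did not overlap. *Alb* was 397, 11700 and 13696 without and 4333, 7.67 and 9.31 with ligature in these mice, and the mouse with 397 held the most *Orm1* of the 6. *Lbp* lost its call without replicate 1 of the ligatured WT mice (adjusted p = 0.0676), and *Orm1* without replicate 3 of the mice without (0.0564) or replicate 2 of those with ligature (0.0872). With log2 *Alb* as a covariate, *Lbp* was at -1.99 (adjusted p = 0.0717) and *Orm1* at -1.62 (adjusted p = 0.158).

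In CCL19-KI mice on 60% HFD, 6 of 9 members had an unadjusted p under 0.05 for ligature, as did 4560 of all 17852 genes. None of the 9 was called by limma, against 5.66% of all genes. Of the 6 members, *Saa1*, *Saa2*, *Hp*, *Orm1* and *Apcs* had higher values with ligature and *Lcn2* lower ones. For all 6 the groups did not overlap, as for 23.3% of genes. *Orm1* was 115, 131 and 87.7 without and 229, 186 and 206 with ligature (0.90 ± 0.36, limma, adjusted p = 0.115). *Hp* was 1908, 2005 and 740 without and 3028, 2790 and 2693 with ligature (1.002 ± 0.46, adjusted p = 0.170). *Alb* in these mice was 444, 890 and 6.38 without and 12273, 11117 and 1337 with ligature. With log2 *Alb* as a covariate limma called none of the 9 either, but that fit cannot separate ligature from *Alb* where both moved together. *Lcn2* was 42.7, 1007 and 36.5 without and 8.88, 19.1 and 14.7 with ligature (-3.02 ± 1.06, adjusted p = 0.0823). The epididymal list summed to 308, 9729 and 9561 without and to 1.96, 0.943 and 0.820 with ligature, and its part in *Lcn2* was not tested. Without the 2 libraries with most *Lcn2*, *Orm1* was called at 1.03 ± 0.30 (adjusted p = 0.0252), and *Lcn2* was at -1.47 ± 0.57 (adjusted p = 0.0893).

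The third comparison was between CCL19-KI and WT mice. With diets and ligature averaged, none of the 9 members was called by limma, against 0.459% of all genes, and edgeR also called none. An unadjusted p under 0.05 was found for 3021 of all 17852 genes and for 1 member, *Orm1* at -0.34 ± 0.15 (adjusted p = 0.238). Without WT on ND without ligature, replicate 2, *Orm1* was at -0.44 and passed (adjusted p = 0.0342). *Adipoq*, the gene at whose locus *Ccl19* was placed, fell by 1.75 ± 0.21 in CCL19-KI mice (adjusted p = 1.18e-05).

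Within single groups, 2 of 54 genotype tests of members were called, against 5.73% of the tests over all genes, both on 60% HFD without ligature. *Lcn2* was 13.5, 9.01 and 10.1 in WT mice and 42.7, 1007 and 36.5 in CCL19-KI mice, a difference of 3.34 ± 1.06 (limma, adjusted p = 0.0327). It was at 1.79 without replicate 2 of the CCL19-KI mice alone (adjusted p = 0.231), and at the same size with an adjusted p of 0.0283 without both libraries with most *Lcn2*. The latter p-value is too small, since the libraries were chosen for their *Lcn2*. *Apcs* was 3.35, 6.26 and 10.3 in WT mice and 0.511, 0.433 and 0 in CCL19-KI mice and differed by -2.45 ± 0.83 (adjusted p = 0.0426). *Alb* in these mice was 5796, 17092 and 24132 against 444, 890 and 6.38, and with log2 *Alb* as a covariate *Apcs* was at -0.24 (adjusted p = 0.895). Both genes separated the groups, as 30.7% of genes did in this comparison. *Lcn2* lost its call without any one of 4 and *Apcs* without any one of 5 of the 6 mice compared. The epididymal list summed to 0.134, 0 and 0 in these WT mice and to 308, 9729 and 9561 in the CCL19-KI mice. Its part in the difference of *Lcn2* was not tested.

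Whether an effect differed between groups was tested directly. None of 45 interaction tests of members (ligature by genotype, and ligature or genotype by each HFD) was called by limma, against 0.0975% of the tests over all genes. The lowest adjusted p was 0.0701. Of the 45, 12 had an unadjusted p under 0.05, as did 12143 of 89260 tests over all genes. edgeR called 2, both for genotype by 60% HFD. Without WT on ND without ligature, replicate 2, the interaction of ligature with 40% HFD (1.63 ± 0.28, adjusted p = 0.0306) and with 60% HFD (2.01 ± 0.28, adjusted p = 0.00158) passed for *Orm1*. *Apcs* passed for genotype by 60% HFD (-2.58 ± 0.78, limma, adjusted p = 0.0345) without CCL19-KI on ND without ligature, replicate 1. A single member interaction also passed without WT on ND with ligature, replicate 3, WT on 40% HFD without ligature, replicate 2, or CCL19-KI on 60% HFD without ligature, replicate 2. With all 36 mice limma called none of these. The share over all genes was not counted for these fits or for edgeR.

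The genes most like 3 of the members over the 36 libraries are given as a description, by Spearman's rho of log2 values among 15701 other genes. For *Saa3* these were *Amz1* (0.84), *Sirpb1c* (0.81), *Brip1* (0.81), *Palld* (0.80) and *Cd300c2* (0.78), and among the members *Hp* came nearest (0.76), followed by *Lbp* (0.69). For *Orm1* they were *Gcsh* (0.91), *Hist1h2bc* (0.90), *Krcc1* (0.89), *Serpina3n* (0.89), itself an acute phase gene, and *Higd1a* (0.87), with *Hp* again the nearest member (0.77). For *Lcn2* they were *Lig1* (0.77), *Cyb561* (0.74), *Pafah1b3* (0.73), *Bex3* (0.73) and *Ddit4l* (0.73), and its rho with the other members lay between -0.37 and 0.30. All of these values share the same libraries, depth and tissue composition.

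A larger share of the other acute phase genes was called in the diet comparisons. Over all genes, 9.21% were called with 40% HFD (5.36% rose) and 18.6% with 60% HFD (10.2% rose). The list of 26 further genes raised in the acute phase response also holds *Saa4*, which the liver makes constantly. Of these 26, 18 rose and 2 fell with 40% HFD and 17 rose and 1 fell with 60% HFD. Their median log2 fold change was 2.23 and 1.72, against -0.02 and 0.01 over all genes. Those with the largest rise with 40% HFD were *Pzp*, a protease inhibitor (4.43 ± 0.89), the fibrinogen chains *Fgb* (3.95 ± 0.82) and *Fga* (3.84 ± 0.83), and the serpin *Serpina3k* (3.89 ± 0.80). Of 9 genes that are lowered in the response, 8 and 6 rose, among them *Apoa1* (4.17 ± 0.89 and 3.31 ± 0.89) and *Ahsg* (4.15 ± 0.88 and 3.22 ± 0.88). None of these 9 fell with either HFD, and the lists were not tested against each other. The list of 18 hepatocyte markers shares genes with both lists, so the counts are not separate results. *Alb*, *Ttr*, *Ahsg*, *Apoa1* and *Apoa2* are also among the 9, and *Fga*, *Fgb*, *Fgg* and *F2* among the 26. Of the 18 hepatocyte markers, 15 rose with each HFD and 1 fell with 60% HFD. Their summed level ranged from 584 to 41489 normalized CPM on ND (median, 5505), 4417 to 50407 on 40% HFD (median, 20914) and 1229 to 51732 on 60% HFD (median, 18477), and the part of liver-type RNA in these results was not tested. For the averaged ligature and genotype comparisons, none of the 26 and none of the 9 was called by limma, against 0.325% and 0.459% of all genes.

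Among 25 tested genes of acute phase cytokines and signalling, 5 rose with 40% HFD, and 3 rose and 3 fell with 60% HFD. Over all genes, 9.21% were called with 40% HFD and 18.6% with 60% HFD. With 60% HFD, this list and the receptors below lie near that share. The liver transcription factor *Hnf4a* rose with both (3.14 ± 0.75, adjusted p = 0.0123, and 2.37 ± 0.75, adjusted p = 0.0295), as did the leukemia inhibitory factor receptor *Lifr* (0.38 ± 0.10 and 0.30 ± 0.10). *Cebpd*, a C/EBP factor induced in inflammation, fell by 0.67 ± 0.15 with 60% HFD (adjusted p = 0.00345) and rose by 0.62 ± 0.12 with ligature (adjusted p = 0.0234), and *Cebpa* fell by 0.56 ± 0.11 in CCL19-KI mice (adjusted p = 0.0116). The NF-kB inhibitor gene *Nfkbia* fell by 0.44 ± 0.12 with 60% HFD. Of 11 tested receptors and partners of the members, none was called with 40% HFD, and with 60% HFD *Cd163*, the receptor that clears haptoglobin bound to hemoglobin, fell by 0.71 ± 0.22 (adjusted p = 0.0298), *Mmp9*, the gelatinase that lipocalin-2 binds, fell by 1.51 ± 0.32 (adjusted p = 0.00267), and *Cd36*, a scavenger receptor, rose by 0.56 ± 0.20 (adjusted p = 0.0475).

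Some markers of other cells were also called with 60% HFD, as were 18.6% of all genes (10.2% higher and 8.4% lower). The 2 calls among 7 neutrophil markers and the 2 among 9 mesothelial markers lie near that share. Of 10 macrophage markers, 4 rose and 1 fell, among them *Itgax* (2.14 ± 0.33, adjusted p = 2.36e-04) and *Cd68* (1.12 ± 0.25, adjusted p = 0.00341), and their summed level was 871 to 3624 normalized CPM on ND and 883 to 3001 on 60% HFD. Of 7 tested neutrophil markers, *S100a8* (1.70 ± 0.42, adjusted p = 0.00727) and *Csf3r* (0.42 ± 0.14, adjusted p = 0.0387) rose, on summed levels of 5.22 to 49.1 on ND and 8.55 to 57.6 on 60% HFD. Of 11 adipocyte markers, *Lep* rose (1.84 ± 0.36) and *Cfd* (-2.72 ± 0.37), *Retn* (-0.94 ± 0.26) and *Pparg* (-0.46 ± 0.16) fell. Of 9 kidney tubule markers, 3 rose, led by *Kap* (2.34 ± 0.71), and of 9 mesothelial markers, *Wt1* (-0.81 ± 0.22) and *Upk1b* (-0.80 ± 0.28) fell. The parts of these cells in the changes of *Lbp*, *Orm1*, *Orm2* and *Apcs* were not tested. With 40% HFD no marker of these 5 lists was called by limma, against 9.21% of all genes.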

How the data were processed

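RNA-seq of eWAT from 36 male mice was analysed in 12 groups of 3, as the labels assign them (18 mice with and 18 without ligature, although the design text of the series describes ligatures in all groups). Per the labels and the study's methods, rRNA-depleted, strand-specific libraries were read on a DNBSEQ-G400, and the submitters' processing notes name Trimmomatic 0.38, Bowtie2, RSEM 1.3.0 and edgeR. The methods give mm10 and the notes GRCm39, and the annotation release is not given in the sources used here. The deposited table held a normalized signal per gene, a CPM after the authors' edgeR scaling (column sums 799716 to 1208061). Every value was a whole multiple of 1 read per library (100% within 0.01 reads), so read counts were recovered from the deposited values. Ensembl identifiers were paired with symbols through GENCODE M21 (124 of 24750 had none), and promoters came from RefSeq on GRCm38.p6.

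Values were tested as log2(normalized CPM + 1) with limma 3.58.1 (R 4.3.3) in 1 fit of 12 group means over the 17852 genes that reached 1 normalized CPM in 3 or more libraries, with Benjamini-Hochberg adjustment over these genes and a threshold of 0.05. Fold changes on this scale understate the change of low genes. Diet, ligature and genotype were tested averaged over the other factors, within each combination, and as interactions. An exact test of 3 against 3 mice cannot go below p = 0.1, so single values were not tested apart from this fit. Correlations with *Alb* used 100000 permutations, or all pairings for 6 libraries. Alternatives were pseudocounts of 0.1 and 5, no filter, median-of-ratios scaling, edgeR 4.0.16 quasi-likelihood on the recovered reads, the replicate number as a block, log2 *Alb* as a covariate, sample quality weights, fits of the 18 mice of 1 ligature state, and each mouse left out in turn. In simulated data with known changes in the averaged ligature comparison over 17524 genes, limma called 41 of 47 genes at a log2 change of -2, 34 of 46 at -1, 40 of 49 at 1, 48 of 50 at 2, and 7 of 17332 unchanged genes.

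The members, *Alb* and the lists were chosen with earlier results of these data known. Of each list, genes called in an averaged comparison were named, at most 4 per list and comparison in order of the absolute change, and for *Saa3*, *Lcn2* and *Orm1* the 5 genes with the highest Spearman correlation. Replicates of 1 group differed beyond sampling noise (chi-square per degree of freedom 15.3 to 333 over 36 pairs). The groups are separate mice by their labels, and library and mouse cannot be told apart.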

Additional observations from a re-analysis of the deposited data

How the results depend on the processing

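Of the values given for 40% HFD and 60% HFD against ND, those of *Orm1* and *Lbp* kept their direction in every fit. The share of all genes called was counted for the main fit only. The counts of members in the other fits below therefore cannot be read as particular to the members. With sample quality weights, 2, 1, 8, 9 and 1 members were called for ligature, genotype, 40% HFD against ND, 60% HFD against ND and 60% HFD against 40% HFD (0, 0, 3, 4 and 0 without weights), and 13, 14, 40 and 19 for the single ligature, genotype and diet comparisons and the interactions (2, 2, 9 and 0 without). A pseudocount of 0.1 gave 5 members for 40% HFD and 4 genotype tests, and a pseudocount of 5 gave 2 for 60% HFD, 1 genotype test and 1 member correlated with *Alb* (3 otherwise). Without a filter, 2 were called for 60% HFD and 1 for genotype. edgeR called 5 for 40% HFD, and 7, 5, 14 and 2 single ligature, genotype, diet and interaction tests. With log2 *Alb* as a covariate, 0 and 2 were called for 40% and 60% HFD, and 0, 0 and 4 ligature, genotype and diet tests. Fits of the 18 mice of 1 ligature state gave 1 genotype and 16 diet tests. Without the 2 libraries with most *Lcn2* (an alternative chosen after seeing the data), 1 member was called for genotype, 2 for 60% HFD, and 5 ligature, 5 genotype, 11 diet and 3 interaction tests.

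Leaving out each mouse in turn gave 0 to 1 members for genotype, 2 to 5 for 40% HFD, 2 to 6 for 60% HFD, and 1 to 6 ligature, 0 to 5 genotype, 7 to 17 diet and 0 to 2 interaction tests, with 0 throughout for ligature and for 60% HFD against 40% HFD. The extremes came without WT on ND without ligature, replicate 2 (6 ligature, 5 genotype, 2 interaction tests), without CCL19-KI on ND without ligature, replicate 1 (17 diet tests), and without WT on 40% HFD without ligature, replicate 2 (5 members). The value of *Lcn2* for 60% HFD, 0.20, ranged from -0.19 to 0.66.

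Reversed values were those of *Saa3* for 40% HFD with edgeR (-0.16) and with log2 *Alb* (-0.50), *Apcs* for 40% HFD (-0.29), *Lcn2* for 60% HFD (-0.0727) and *Apcs* for 40% HFD in WT mice without ligature (-0.71) with log2 *Alb*. For all of these changes the cause was not tested.

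With the replicate number as a block, 3 and 6 members were called for 40% and 60% HFD against ND, 0 for ligature, genotype and 60% HFD against 40% HFD, and 2 ligature, 1 genotype, 8 diet and 0 interaction tests. The numbers did not pair the mice: same-numbered mice had a median correlation of deviations of -0.015 (73 of 198 pairs over 0.1), and 16 of 36 libraries correlated best with one of their own number.

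At 0.142 to 0.250 normalized CPM for 0 reads, *Saa1*, *Saa2* and *Apcs* were at 3 reads or less in 7, 12 and 8 libraries, so their changes against such groups depend on the pseudocount.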

Other observations

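The mouse with the most *Saa1* and *Saa2*, WT on 40% HFD without ligature, replicate 1, was singled out after its values were seen. Of 26 further acute phase genes, 4 were highest in it, namely *Itih4*, an inter-alpha-trypsin inhibitor heavy chain (1480 normalized CPM, against at most 748 elsewhere), the heme-binding protein gene *Hpx* (1268 against 918), the complement gene *C3* (8181 against 7968) and the mannose-binding lectin gene *Mbl1* (83.7 against 73.8). That is 15.4% of the list, and 16.6% of all genes tested were highest in this library. *Alb* ranked 6 of 36 there at 17711. *Saa4*, the serum amyloid A made constantly by the liver, was at 131 and ranked 3 of 36, against a median of 27.8 in the other libraries, so the excess of *Saa1* and *Saa2* over their next highest libraries (20.7 and 37.9 times) was not seen for *Saa4* (0.815 times).

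*Orm3*, another orosomucoid gene, fell by 0.87 ± 0.17 between 40% HFD and 60% HFD (limma, adjusted p = 0.0139), while *Orm1* and *Orm2* were at -0.09 ± 0.18 and 0.31 ± 0.31 in the same comparison (adjusted p = 0.871 and 0.708). The difference between the genes was not tested, and *Orm3* shares 9.42% of its 31-base words with *Orm2*.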
